A study of Mus musculus with 8 samples.

Results

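In AML12 mouse hepatocytes, the mRNA of the bone morphogenetic protein (BMP) and activin receptors was measured together with the ligand gene Bmp4 and the target genes Id1, Id2 and Id3. These 10 genes were taken by name, and every probe whose accession maps to them was used. They are 10 of 21612 genes named on the array and have 14 probes, of which 12 were tested, with at least 1 for each gene. AML12 cells are an established line of mouse hepatocytes. Irisin is a secreted peptide made by cleavage of the membrane protein Fndc5. RNA came from 4 control samples, cultured for 24 h without irisin, and from 4 samples cultured for 24 h with 0.5 µg/ml irisin. Both groups are the same unmodified cell line in the same serum-containing DMEM F-12 medium, and a single line was used. The labels do not say that the samples of a group came from separate cultures, so the p-values measure the spread between these samples, which may be technical. Each sample was hybridized to a 1-color Agilent array. Values are given as relative log2 signal, which is the log2 of the background-subtracted signal minus the log2 of the 75th percentile of its array. A value of 0 is therefore the signal of a probe at that percentile, and a difference of 1 is a 2-fold change.

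BMPs and activins are secreted dimers of the TGF-β superfamily. They bring together type II receptors, here Acvr2a, Acvr2b and Bmpr2, and type I receptors, here Acvr1, Bmpr1a and Acvr1b, which are all serine/threonine kinases. The type I receptors phosphorylate SMAD proteins, which then enter the nucleus, and Acvr1 and Bmpr1a act mainly through Smad1, Smad5 and Smad9, while Acvr1b acts through Smad2 and Smad3. The ID genes are direct targets of BMP signaling, and their products bind E proteins, transcription factors that they keep off DNA. In hepatocytes the BMP pathway is best known for the control of the iron hormone hepcidin.

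Promoter windows from RefSeq on GRCm38.p6, from 250 bases before to 50 bases after the gene start, were matched for 9 of the 10 genes, all but Id1. The windows of Id2 and Id3 are shown because the ID genes are the transcriptional output of the pathway. Capitals mark GGCGCC, the core of GC-rich BMP response elements, which reads the same on both strands. It was searched for in all 32851 windows of this length and found in 11.9% of them. The Id2 window (chr12:25096043-25096342, minus strand, GC content 63.3%) holds 1 match and the Id3 window (chr4:136143572-136143871, plus strand, GC content 60.0%) holds 0.
Id2: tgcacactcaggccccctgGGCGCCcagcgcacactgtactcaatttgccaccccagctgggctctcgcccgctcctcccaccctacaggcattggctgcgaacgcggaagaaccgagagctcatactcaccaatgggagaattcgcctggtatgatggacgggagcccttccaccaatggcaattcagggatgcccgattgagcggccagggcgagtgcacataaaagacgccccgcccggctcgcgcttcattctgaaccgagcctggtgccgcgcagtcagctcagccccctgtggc
Id3: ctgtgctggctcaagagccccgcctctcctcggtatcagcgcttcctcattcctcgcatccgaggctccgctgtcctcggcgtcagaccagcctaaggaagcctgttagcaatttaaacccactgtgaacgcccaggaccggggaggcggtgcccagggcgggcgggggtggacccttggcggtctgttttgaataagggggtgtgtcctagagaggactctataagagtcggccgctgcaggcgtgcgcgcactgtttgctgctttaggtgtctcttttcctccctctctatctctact
Among the other members, the windows of Acvr1b, Bmpr1a and Bmpr2 hold 1 match each. A match is a description of the letters and not a bound site, and no match says only that these letters are not in the window.

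The arrays of the groups differed in signal before scaling. The 75th percentile ranged from 372 to 534 in control and from 682 to 850 in irisin cells. Each group had a slide and a scan day of its own, so treatment cannot be told apart from slide or scan. All 12 hepatocyte markers, among them Alb, Ttr and Hnf4a, were well above background on all 8 arrays. So were 5 of 6 bile duct markers, including Krt19 and Sox9, and Epcam was not. Markers of other liver cells were mixed. Of 6 endothelial markers, Pecam1 and Kdr were well above background on all 8 arrays, while Cdh5, Lyve1 and Tek were so on none. Of 7 stellate and fibroblast markers, Col1a1 and Acta2 were above it on all 8, while 5, among them Lrat, Des and Pdgfrb, were so on none. Of 6 macrophage markers 3 passed on all 8. The summed linear signal of the hepatocyte markers relative to the 75th percentile was 478 to 530 in control and 388 to 466 in irisin cells. This sum was lower with irisin without overlap, and its part in the results was not tested. A linear sum follows its brightest markers, here Krt18 (log2 change -0.47) and Trf (-0.39). The median log2 change of the 12 markers was -0.096, and Alb (0.11), Ahsg (0.050) and Fgb (0.14) were higher with irisin.

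None of the 10 genes was called between irisin and control. A gene was called when its change was at least 1.5-fold and its Benjamini-Hochberg adjusted p in limma was under 0.05, read at its brightest probe. Among all 14311 tested genes 0.531% were called higher and 10.2% were called lower with irisin. By the adjusted p alone, 1 member was lower, Id1, and 0 were higher, against 17.9% and 2.65% of all genes. At an unadjusted p under 0.05, 2 members were lower (Id1 and Id3) and 0 were higher, and the methods' test called 0 of the 10 as well. The median log2 change of the members was 0.044, against -0.064 for all tested genes, with 6 members above 0 and 4 below. The members lay between -0.37 for Id1 and 0.20 for Acvr2a. At the brightest probe, the 95% interval of the change lay within 1.5-fold in both directions for 8 of the 10 genes. The exceptions were Acvr2a, whose interval reached 0.70, and Id1, whose interval reached -0.62. The intervals of the dimmer probes of Acvr1 and Acvr2a also went beyond 1.5-fold, up to 0.68 and 1.89.

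**Figure D1:**
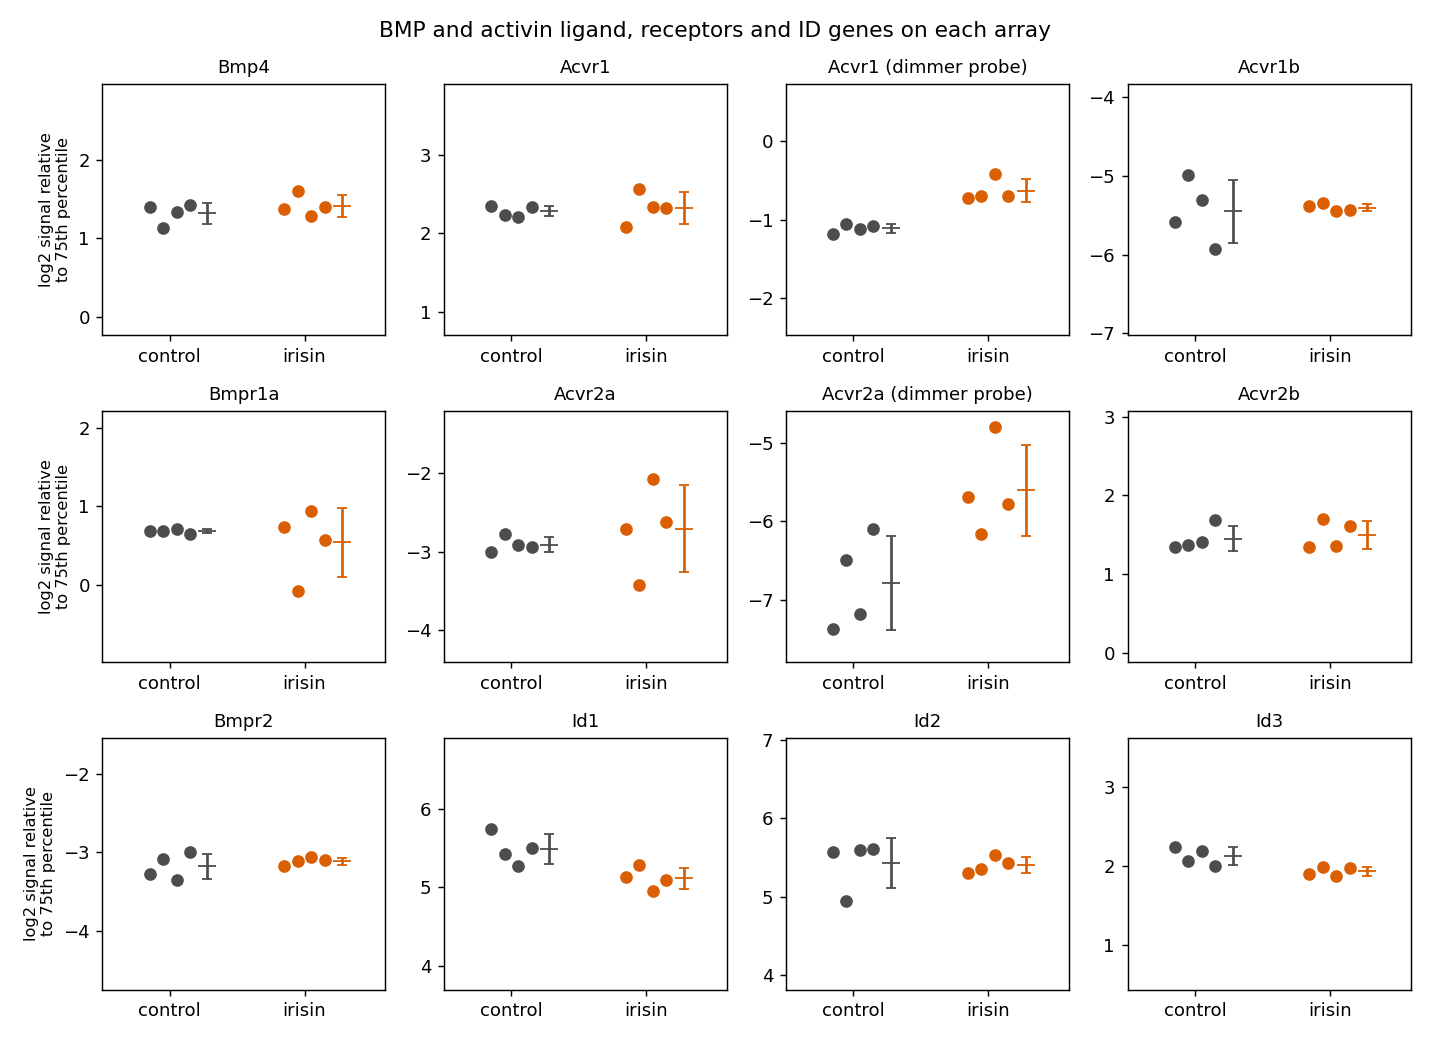
Relative log2 signal of the 12 tested probes on each array, with control arrays in gray and irisin arrays in orange, and the mean with SD (n = 4) beside each group and the same axis height in every panel. The groups overlap in all panels but the dimmer probe of Acvr1, which is higher with irisin, and Id3, which is lower.

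Bmp4 encodes a BMP ligand. Its relative log2 signal on control replicates 1 to 4 was 1.40, 1.13, 1.33 and 1.43, and on irisin replicates 1 to 4 it was 1.37, 1.61, 1.29 and 1.40. The groups overlapped, and irisin replicate 2 was the highest of the 8 arrays. The mean was 1.32 ± 0.132 (SD, n = 4) in control and 1.42 ± 0.137 (SD, n = 4) in irisin cells, a log2 change of 0.093 (95% interval -0.13 to 0.32, adjusted p = 0.579 from limma). On no array did a second Bmp4 probe rise well above background, and it was not tested.

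Acvr1, a type I receptor for BMPs, gave different results with its 2 probes, which carry the same accession. The brighter probe read 2.35, 2.24, 2.21 and 2.33 on the control arrays and 2.08, 2.56, 2.33 and 2.31 on the irisin arrays. The irisin arrays spread on both sides of the controls, and the log2 change was 0.038 (95% interval -0.20 to 0.27, adjusted p = 0.847 from limma). The dimmer probe read -1.18, -1.05, -1.12 and -1.08 on the control arrays and -0.72, -0.70, -0.42 and -0.69 on the irisin arrays. Every irisin array was above every control array, as for 4.18% of all tested probes. The dimmer probe was higher by 0.47 (standard error 0.091, 95% interval 0.27 to 0.68, adjusted p = 0.00305 from limma; exact permutation test, two-sided, p = 0.0286, which is the lowest value that 4 arrays against 4 allow). It passed the adjusted p, as 2.96% of all probes did in this direction, but did not reach 1.5-fold. The difference between the probes on the same array does not depend on any scaling that moves all probes of an array alike. It was -3.39 ± 0.107 (SD, n = 4) in control and -2.95 ± 0.235 (SD, n = 4) in irisin cells, a shift of 0.44 (exact permutation test, p = 0.0286, Benjamini-Hochberg adjusted p = 0.0715 over 5 such differences, chosen after the values were seen). Every irisin array was above every control array in this difference. Since 0.0286 is the lowest p of the test, the correction over 5 differences left it little room to pass, and the adjusted p says little either way.

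Bmpr1a, the other type I receptor for BMPs, read 0.69, 0.69, 0.72 and 0.65 on the control arrays, which lay close together. It read 0.74, -0.074, 0.95 and 0.57 on the irisin arrays, where replicate 2 was far lower than the rest. The log2 change was -0.14 (95% interval -0.54 to 0.26, adjusted p = 0.652 from limma), and without irisin replicate 2 it was 0.066. Acvr1b, the type I receptor for activins, was dim, with a signal between 7.76 and 19.7 on a linear scale. Its relative log2 signal was -5.58, -4.99, -5.30 and -5.93 on the control arrays and -5.38, -5.34, -5.45 and -5.43 on the irisin arrays. The irisin arrays lay inside the range of the controls. The log2 change was 0.049 (95% interval -0.32 to 0.42, adjusted p = 0.878 from limma), and without control replicate 4 it was -0.11.

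Acvr2a, a type II receptor for activins and some BMPs, was the least certain member. Its brighter probe read -3.00, -2.77, -2.92 and -2.94 on the control arrays and -2.71, -3.42, -2.07 and -2.63 on the irisin arrays. Irisin replicate 2 was the lowest and irisin replicate 3 the highest of all 8 arrays. The log2 change was 0.20 (standard error 0.23, 95% interval -0.30 to 0.70, adjusted p = 0.595 from limma), and it was 0.44 without irisin replicate 2 and -0.010 without irisin replicate 3. The dimmer probe was well above background on 2 control arrays and on all 4 irisin arrays, so it was tested only through the group in which it is higher. It read -7.37, -6.49, -7.18 and -6.09 on the control arrays and -5.69, -6.16, -4.80 and -5.78 on the irisin arrays, and the groups overlapped at control replicate 4. Its linear signal was between 2.24 and 7.29 in control and between 9.53 and 28.9 in irisin cells. Its log2 change was 1.18 (standard error 0.32, 95% interval 0.46 to 1.89, adjusted p = 0.0218 from limma; exact permutation test, p = 0.0571). It was the only member probe past both thresholds, which 0.714% of all probes passed in this direction. It no longer passed without control replicate 1 (0.98, adjusted p = 0.0656), control replicate 3 (1.04, adjusted p = 0.0627) or irisin replicate 3 (0.91, adjusted p = 0.0527), all from limma. The difference between the probes of Acvr2a on the same array was -3.88 ± 0.561 (SD, n = 4) in control and -2.90 ± 0.203 (SD, n = 4) in irisin cells (exact permutation test, p = 0.0286, adjusted p = 0.0715 over the 5 differences). The dimmer and the brighter probe changed by 1.70 and 0.28 with quantile normalization and by 0.66 and 0.55 with normexp background correction. With subtracted background and an offset they changed by -0.38 and 0.042, so the dimmer probe no longer rose more than the brighter.

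Acvr2b, the paralog of Acvr2a, read 1.35, 1.36, 1.40 and 1.68 on the control arrays and 1.35, 1.69, 1.35 and 1.61 on the irisin arrays. The ranges of the groups were nearly the same. The log2 change was 0.051 (95% interval -0.20 to 0.30, adjusted p = 0.807 from limma). The other Acvr2b probe stayed at background on all arrays and was not tested. Bmpr2, the type II receptor dedicated to BMPs, read -3.27, -3.09, -3.36 and -3.00 on the control arrays and -3.17, -3.11, -3.07 and -3.10 on the irisin arrays. The irisin arrays again lay inside the control range. The log2 change was 0.066 (95% interval -0.14 to 0.28, adjusted p = 0.690 from limma).

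Id1 was the member with the largest change at a leading probe, and it was lower with irisin. Its relative log2 signal was 5.74, 5.43, 5.28 and 5.50 on the control arrays and 5.14, 5.28, 4.95 and 5.09 on the irisin arrays. The groups met at 1 array each, since irisin replicate 2 was just above control replicate 3. The mean went from 5.48 ± 0.193 to 5.11 ± 0.136 (SD, n = 4 in each group), a log2 change of -0.37 (standard error 0.11, 95% interval -0.62 to -0.12, adjusted p = 0.0357 from limma; exact permutation test, p = 0.0571), or -22.7% on the linear scale. It did not reach 1.5-fold. Leaving out single arrays kept the change between -0.44 and -0.29, and the adjusted p was under 0.05 only without control replicate 3 or irisin replicate 2 and reached 0.104 without irisin replicate 3. Id1 was in the brightest decile of tested probes, where the median change of all probes was -0.20.

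Id3 was also lower on the irisin arrays. It read 2.24, 2.06, 2.19 and 2.00 on the control arrays and 1.90, 1.99, 1.87 and 1.98 on the irisin arrays. Every irisin array was below every control array, as for 19.7% of all genes in this direction, with the nearest arrays at 2.00 in control and 1.99 in irisin cells. The log2 change was -0.19 (standard error 0.085, 95% interval -0.38 to -0.00044, adjusted p = 0.145 from limma; exact permutation test, p = 0.0286), which did not pass the threshold. Id2 read 5.57, 4.95, 5.60 and 5.61 on the control arrays and 5.31, 5.35, 5.54 and 5.44 on the irisin arrays. Control replicate 2 was the lowest of the 8 arrays, while the other controls were above all irisin arrays. The log2 change of Id2 was -0.024 (95% interval -0.35 to 0.30, adjusted p = 0.936 from limma), and without control replicate 2 it was -0.18.

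The ID genes were compared with each other on the same array, where a scaling that moves all probes of an array alike drops out. The log2 ratio of Id1 to Id2 was 0.053 ± 0.348 in control and -0.29 ± 0.225 in irisin cells (SD over 4 arrays per group; p = 0.171 in an exact permutation test). The log2 ratio of Id1 to Id3 was lower by 0.18 with irisin (3.36 ± 0.195 against 3.18 ± 0.0998, SD over 4 arrays per group; p = 0.143 in an exact permutation test), and that of Id3 to Id2 by 0.16 (p = 0.343 in the same exact permutation test). None of these differences passed after correction (adjusted p between 0.214 and 0.343 over the 5 differences), so that an unequal response of the ID genes was not shown. Scalings that act by brightness do not drop out. With quantile normalization Id1 and Id3 changed by -0.17 and -0.18, and with cyclic loess by -0.20 and -0.14. In the main scaling the median change of all probes was -0.20 in the decile of Id1 and Id2. It was -0.020 in the decile of Id3.

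**Figure D2:**
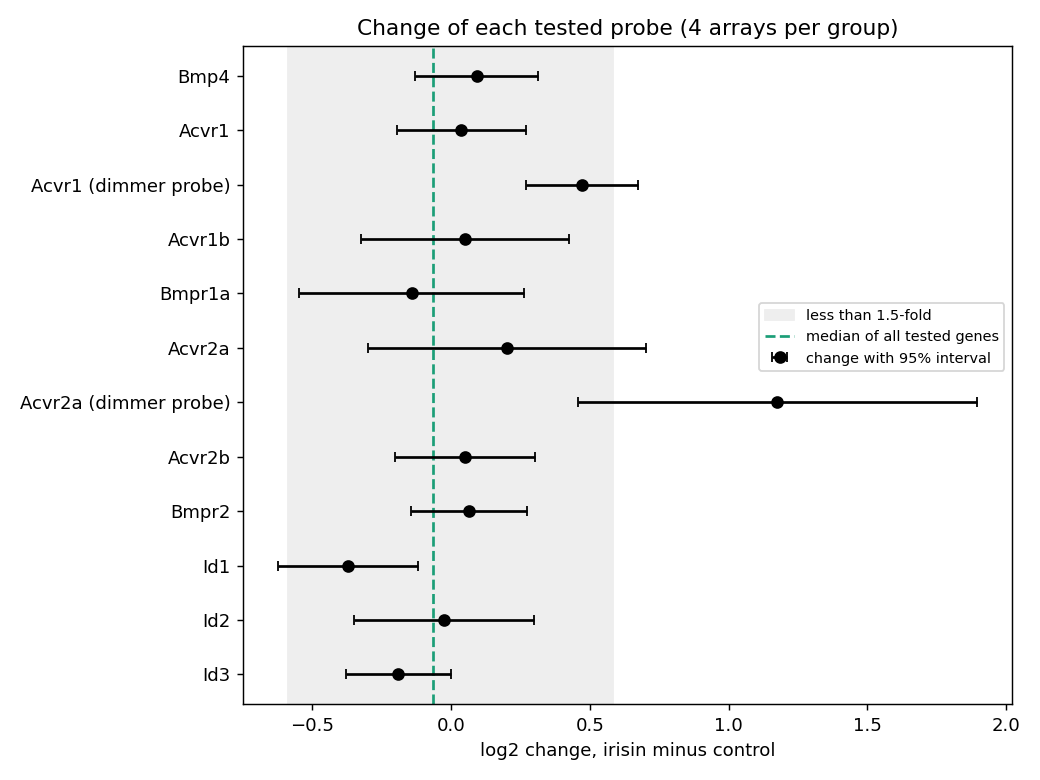
Log2 change, irisin minus control, of the 12 tested probes with 95% intervals from limma (4 arrays per group); the gray band marks changes under 1.5-fold and the dashed line the median of all tested genes, -0.064. The intervals of Id1 and of the dimmer probes of Acvr1 and Acvr2a lie off 0, and that of Id3 ends at -0.00044.

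The direction of the ID genes depended on how the arrays were scaled. Id1 changed by -0.17 under quantile normalization, by -0.20 under cyclic loess and by -0.57 under normexp background correction, but by 0.21 with spike-in scaling and by 0.37 with no scaling. The median of all genes was itself at 0.51 and 0.67 in these last settings. Relative to the median of all tested genes, Id1 was lower in all the scalings named here, from -0.63 with normexp to -0.17 with quantile normalization. Spike-in scaling and no scaling move all probes of an array alike. Their distance is therefore in effect that of the main scaling, -0.31, and adds no separate support. The normexp value is less certain, as its modelled background was far wider on irisin replicates 2 and 4 (SD 162 and 226) than elsewhere (at most 1.55). Id3 lay between -0.28 and -0.12 relative to the median of all tested genes under the scalings named above. It was above that median, at 0.050, with subtracted background and an offset, and at 0.0054 with no filter on dim probes. Id2 lay on both sides of it, from -0.085 with normexp to 0.31 with the subtracted background. With spike-in scaling 6 members were called higher, where 33.4% of all genes were, and with no scaling 8 were, where 66.8% of all genes were. In the other scalings no member was called. The 6 were Bmp4, Acvr1, Acvr1b, Acvr2a, Acvr2b and Bmpr2, and the 2 added with no scaling were Bmpr1a and Id2.

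**Figure D3:**
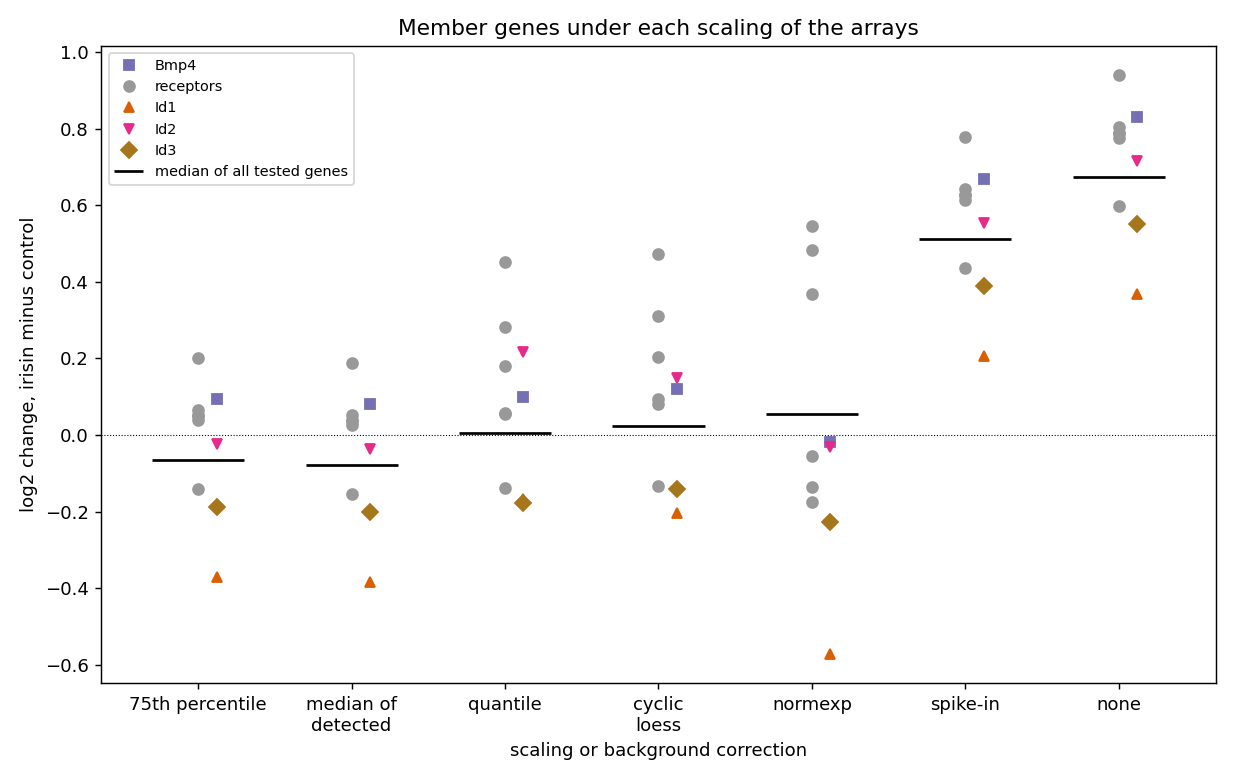
Log2 change of the 10 member genes (points) and of the median of all tested genes (black line) under 7 scalings or background corrections of the arrays. The members move up with the median of all genes under spike-in scaling and no scaling, and Id1 lies below the line in every column.

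The rest of the pathway was read from lists of 78 genes. Of these, 56 were tested, 0 were called higher and 11 lower, against 0.531% and 10.2% of all genes, and their median log2 change was -0.10. Among ligands 3 of 9 tested genes fell, Gdf5 (-1.32, adjusted p = 0.000115), Gdf7 (-0.78, adjusted p = 0.00675) and Nodal (-0.61, adjusted p = 0.00139), all from limma, and 6 did not pass. Bmp2 and Bmp6, which encode the BMPs of liver endothelium, were not well above background on all arrays of either group. Inhbb, which encodes an activin subunit, was bright and changed by -0.18 (adjusted p = 0.180 from limma). Of 7 tested receptors and co-receptors, Acvrl1 (-0.62, adjusted p = 0.00122 from limma) and Eng (-0.72, adjusted p = 0.00053 from limma) fell, a BMP receptor and its co-receptor best known from endothelial cells, and 5 did not pass. The summed signal of the endothelial markers relative to the 75th percentile was 0.703 to 0.790 in control and 0.414 to 0.585 in irisin cells, and its part in the result was not tested. Both endothelial markers that could be tested moved the same way, Pecam1 by -0.61 (adjusted p = 0.00214 from limma, called lower) and Kdr by -0.56 (adjusted p = 0.00441 from limma). Kdr was by far the brightest of the list, so the sum and Kdr are not separate observations. Stab2, which was not tested, changed by 0.45 and was well above background on 0 control and 2 irisin arrays. Cdh5, Lyve1 and Tek were at background on all arrays. Of the stellate and fibroblast markers Acta2 was called lower (-0.68, adjusted p = 0.000437 from limma) and Col1a1 changed by 0.0064.

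Among extracellular antagonists 2 of 10 were called lower, both of which bind BMPs outside the cell. Chordin (Chrd) changed by -0.99 (adjusted p = 0.00012 from limma). Noggin (Nog) was well above background on all 4 control arrays but on 2 irisin arrays, so it was tested only through the group in which it is higher, and its change of -2.39 (adjusted p = 0.000106 from limma) rests partly on values near background. None of the 8 SMADs was called. The largest change among them was in Smad1, which transmits BMP signals, at 0.46 (standard error 0.096, adjusted p = 0.00461 from limma), under 1.5-fold, and the inhibitory Smad6 and Smad7 changed by -0.12 and -0.34 (adjusted p = 0.434 and 0.0635 from limma). None of 10 intracellular regulators was called either, with Ski, a SMAD corepressor, farthest from 0 at -0.22 (adjusted p = 0.0801 from limma).

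Of 9 other target genes tested, 4 were called lower and 5 were not called. The homeobox genes Msx2 (-0.88, adjusted p = 0.000111), Dlx3 (-0.66, adjusted p = 0.000332) and Msx1 (-0.65, adjusted p = 0.000395), all from limma, were among the 4. The fourth, Hamp2 (-0.87, adjusted p = 0.0417 from limma), was well above background on all 4 control and on 3 irisin arrays, so it too was tested only through the group in which it is higher, and it did not pass the exact permutation test (p = 0.114). Restricted to probes well above background on all 8 arrays, 9 of 53 tested pathway genes were called lower, and 2397 of 22818 probes were. These are counts of genes and of probes and cannot be compared directly, and the share of all genes under this filter was not computed. Hamp, which encodes hepcidin, changed by 0.38 (adjusted p = 0.0201 from limma), under 1.5-fold and in the opposite direction to its paralog Hamp2. The median linear signal of Hamp2 was only 7.1. Id4, the remaining ID gene, was not well above background on any array. Of the 3 E proteins bound by ID proteins none was called, and Tcf12 had the largest change, 0.29 (adjusted p = 0.0361 from limma).

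The called genes were mostly dim. Of the 11, 10 lay in the 3 dimmest deciles of tested probes, where the median changes of all probes were -0.51, -0.33 and -0.15, and Dlx3 lay in decile 6, where it was 0.0021. With quantile normalization and with cyclic loess 5 of the 11 were still called lower (Gdf5, Nog, Chrd, Msx2 and Dlx3). With spike-in scaling Gdf5 and Nog were, with no scaling only Nog (-1.65), and with normexp none, where all of them but Dlx3 were above 0.

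**Figure D4:**
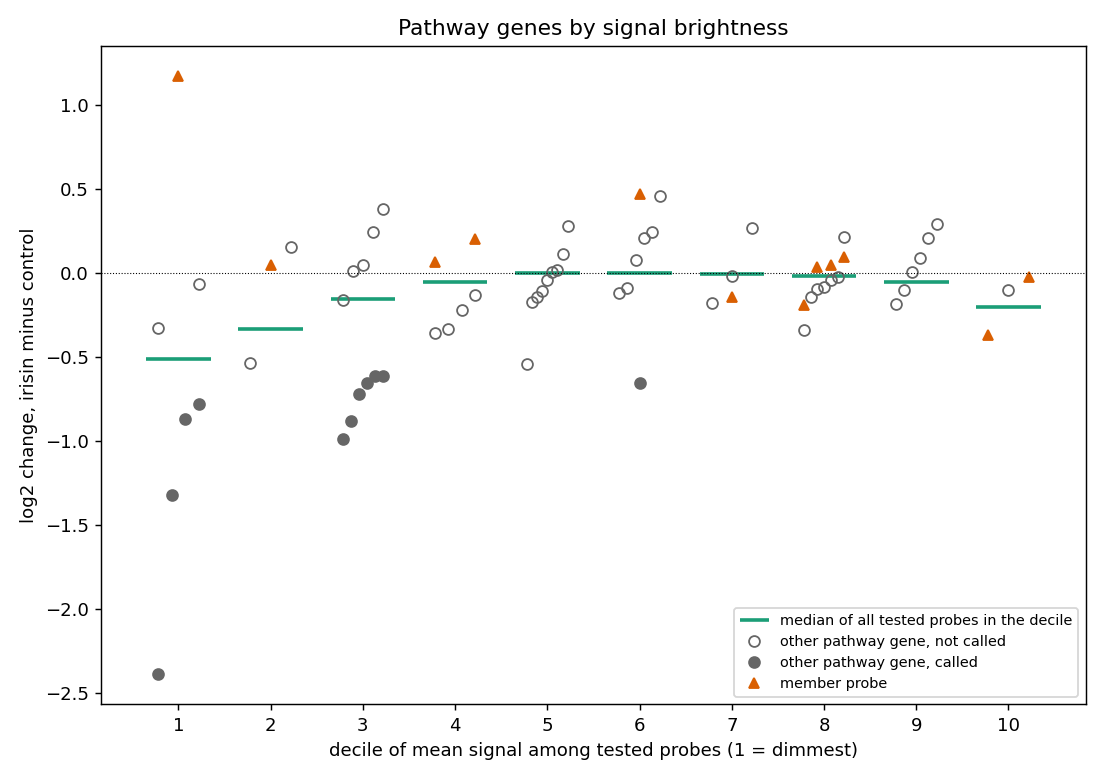
Log2 change of the 56 tested pathway genes (gray circles, filled where called) and of the 12 member probes (orange triangles) by decile of mean signal, from the dimmest at 1 to the brightest at 10; green lines give the median change of all tested probes in each decile. The called genes sit in deciles 1 and 3 and, for Dlx3, in decile 6, and the median line falls from 0.0021 in decile 5 to -0.51 in decile 1.

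The genes whose signal followed the ID genes most closely over the 8 arrays were looked up among 14255 other tested genes, as a description that includes the difference between the groups. For Id1 they included Adap2 and Snhg6, with Pearson r of 0.985 and 0.981. For Id2 they were Zmiz1, Lcat and Spopfm2 (r between 0.913 and 0.954), and for Id3 they were Zpr1, Pik3r6 and Prr9 (r between 0.964 and 0.980). These points share the arrays and their scaling, and among so many genes high values of r over 8 arrays are common. For Id1 1% of genes were above 0.931, for Id2 above 0.674 and for Id3 above 0.887. Id2 was far lower on control replicate 2 (4.95) than on the other arrays, and r without that array was not computed. In these bulk samples fewer cells with a transcript and less of it per cell cannot be told apart.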

How the data were processed

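RNA of 8 AML12 samples, 4 control and 4 irisin by their labels, was Cy3-labeled and hybridized to 1-color Agilent arrays. Scans were quantified by the authors in Agilent Feature Extraction (12.0.3.1 per the file headers), and they deposited signal intensity on a linear scale, background-subtracted and detrended within an array but not normalized between arrays. The deposited value table holds the same intensity averaged over the spots of a probe, within 0.0005% of the scanner values.

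Control spots and spots marked as non-uniform or population outliers (at most 199 of 43020 per array) were left out, spots were averaged to 39429 probes, and from each log2 intensity that of the 75th percentile on its array was subtracted. Accessions named 28663 probes (72.7%) through RefSeq GRCm38.p6. limma 3.58.1 in R 4.3.3 (lmFit and eBayes) was fitted to 24092 probes that the scanner software marked well above background throughout control, irisin or both groups, with Benjamini-Hochberg adjustment over all of them. For single values all 70 assignments of arrays to groups were enumerated (exact permutation test, two-sided). The brightest probe stood for its gene. The methods' test is the unmoderated comparison of the 2 groups at the same thresholds. The number of arrays limits the precision.

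The named genes are all members, the called pathway genes, the largest change of each pathway list, and the 3 genes most like each of Id1, Id2 and Id3, of which 1 is not reported here. Inhbb, Bmp2, Bmp6, Smad6, Smad7, Hamp, Id4 and the markers were named after their values were seen. The members and lists were chosen with earlier results of these data known, and the lists were written from general knowledge. The fit was tested on simulated data. Alternatives covered scaling, background correction, filters, single arrays left out and a replicate block. Plots were drawn with matplotlib 3.10.9 (Python 3.11.15, pandas 2.3.3).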

Additional observations from a re-analysis of the deposited data

Results flagged for a closer look

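In 24 groups of 4 arrays, made of the 12 tested probes in both groups, 3 held an array distant from the rest of its group. By chance about 1 group in 20 does. The dimmer Acvr1 probe read -0.42 on irisin replicate 3, against -0.72 to -0.69 on the other irisin arrays. Acvr2b read 1.68 on control replicate 4, against 1.35 to 1.40. Id2 read 4.95 on control replicate 2, against 5.57 to 5.61, and without that array its log2 change went from -0.024 to -0.18.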

How the results depend on the processing

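Of 165 values of member probes under other settings, 133 kept their direction and their side of the thresholds and 17 changed sign. Among the rest, which kept their sign, 14 newly passed the thresholds and 1 no longer did. Of the values that changed sign, Bmpr1a and Id2 with no scaling also passed the thresholds. The dimmer Acvr2a probe with subtracted background no longer did. With no scaling, the values that changed sign were Bmpr1a (0.60), Id1 (0.37), Id2 (0.71) and Id3 (0.55), and with spike-in scaling Bmpr1a (0.44), Id1 (0.21), Id2 (0.55) and Id3 (0.39). With normexp they were Bmp4 (-0.019), Acvr1 (-0.056) and Acvr2b (-0.14), and the dimmer Acvr2a probe (0.66) was no longer called. Id2 changed sign with quantile normalization (0.22) and cyclic loess (0.15). With subtracted background and an offset of 50, chosen after seeing the data, Acvr1b (-0.48), the dimmer Acvr2a probe (-0.38), Bmpr2 (-0.24) and Id2 (0.20) did. With single arrays left out, Acvr1 lay between -0.041 and 0.12, Acvr1b between -0.11 and 0.20, Bmpr1a between -0.27 and 0.066, Acvr2a between -0.010 and 0.44, Acvr2b between -0.014 and 0.13 and Id2 between -0.18 and 0.037.

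The members called were 6 with spike-in scaling, 8 with no scaling and 1 by adjusted p alone, and 0 in the other settings. The other pathway genes called went from 11, all lower, to 0 with normexp, 6 with quantile normalization and 6 with cyclic loess (1 higher and 5 lower in each), 24 with no filter on dim probes (all lower) and 18 by adjusted p alone (3 higher). The direction turned with spike-in scaling, with 19 called (17 higher and 2 lower), and with no scaling, with 35 called (34 higher and 1 lower). The probes called went from 2987 (172 higher) to 0 with normexp, 1691 (670 higher) with quantile normalization, 1625 (699 higher) with cyclic loess, 8179 (7817 higher) with spike-in scaling, 15082 (14920 higher) with no scaling, 12934 (184 higher) with no filter, 5909 by adjusted p alone and 800 at 2-fold. In normexp the modelled background had an SD of 162 and 226 on irisin replicates 2 and 4 and at most 1.55 on the other arrays. The cause of the other shifts was not tested.

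The labels do not say whether equal replicate numbers pair the samples. The deviations of same-numbered arrays correlated at 0.109, -0.348, -0.125 and 0.165, and those of differently numbered arrays between -0.238 and 0.365. These values show no pairing but cannot exclude it. With the replicate number as a block, 3004 probes, 0 members and 11 pathway genes were called, and Id1 was at an adjusted p of 0.0398 from limma. Dim probes such as Acvr1b and the second Acvr2a probe lie near background, which limits what they can resolve.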
